A study of Mus musculus with 6 samples.

Results

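Lyz2, Cd52, Cd68, Mpeg1, Fcgr2b, Fcgr3 and Fcer1g are genes of phagocytes, and this report follows their transcripts through the mouse brain at 3 ages. The 7 genes are a named list out of the 32285 genes in the count tables, and each was found once by its symbol. They were listed with age differences of these data already known, chiefly between old and young sections. That contrast, in whole sections, in regions and between regions, is therefore described here with its values and errors, and no finding is drawn from it. The other contrasts are given with their tests. Each shares its young or its old sections with the contrast used for the listing. Their calls of members are therefore not independent of that choice, and their p-values do not allow for it.

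Visium spatial RNA sequencing was applied to 6 coronal sections, 16 µm thick, of frozen brains from males of the inbred mouse strain C57BL/6J. The groups were young mice of 6 months, middle mice of 18 months and old mice of 21 months, with 2 sections each. No treatment or genetic change was given for any group. Each section was counted as a separate animal, because 2 males are given for every age. Visium captures the transcripts of a section on a grid of barcoded spots, each of which can hold several cells of different types, and counts them as unique molecular identifiers (UMIs).

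Microglia, the resident macrophages of the brain, take up debris, synapses and opsonised particles, and macrophages of the meninges, vessels and choroid plexus do the same at its borders. Receptors for the constant part of IgG (Fcγ receptors) bind antibody on a particle. Activating receptors signal through the adaptor encoded by Fcer1g, whose cytoplasmic motif (ITAM) recruits the kinase Syk, while Fcgr2b carries an inhibitory motif. The particle then enters a phagosome that fuses with lysosomes, where proteins such as those of Cd68, Mpeg1 and Lyz2 reside or are delivered. In white matter, microglia of aged mice are known for a state with raised lysosomal and lipid-handling genes.

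Section totals ran from 60939185 to 77557934 UMIs over 2573 to 2973 spots, and both old sections were the shallowest. Spots were grouped by their transcripts and 10 regions were named from markers, with the 7 genes and the gene lists left out of the grouping. White matter held 158 to 265 spots and 1996787 to 2855772 UMIs per section, and all 15 of its markers were among the leading genes of its cluster. Both young sections, middle 1 and old 1 lay on slide 1, and middle 2 and old 2 on slide 2, so that slide and age were partly confounded. Levels are given as CPM, the UMIs of a gene per 1000000 UMIs of the same section or region. In sums over spots, more phagocytes and more RNA per phagocyte cannot be told apart.

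Lyz2, which encodes lysozyme M, an enzyme that cleaves bacterial cell walls and is made by macrophages and granulocytes, had the largest log2 fold change of the 7 genes between old and young. It lies on chromosome 10 (GRCm38 117277331 to 117282321, minus strand). In whole sections its level was 12.2 and 9.39 CPM in young 1 and young 2, 17.5 and 20.3 CPM in middle 1 and middle 2, and 25.5 and 42.2 CPM in old 1 and old 2. In white matter it was 35.7 and 26.9 CPM in the young, 88.2 and 111 CPM in the middle and 199.6 and 342 CPM in the old sections. The 3 ages did not overlap in either sum. The log2 fold change of old over young was 1.59 (SE 0.30) in whole sections and 3.06 (SE 0.41) in white matter. The old sections differed widely from each other, and the white matter value was 2.61 without old 2 and 3.38 without old 1.

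Lyz2 has a close neighbour, Lyz1, on the same strand (chromosome 10, 117287797 to 117292868), the lysozyme of intestinal Paneth cells. Reads that match both copies could in principle be given to the wrong gene or left out of the counts, and reads left out were not measured. Lyz1 had 1 to 5 UMIs per section, against 728 to 2571 UMIs for Lyz2. The stretch just upstream of both genes is shown because the copies are much alike there while their counts differ widely. These are the 80 bases that end where the annotated Lyz2 gene starts (chr10:117282322-117282401, minus strand) and the matching bases of Lyz1 (chr10:117292918-117292997, minus strand), from the RefSeq promoter table (GRCm38.p6), with the bases at which the copies differ in capitals.
Lyz2: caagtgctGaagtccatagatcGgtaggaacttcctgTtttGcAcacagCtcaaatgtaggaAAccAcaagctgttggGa
Lyz1: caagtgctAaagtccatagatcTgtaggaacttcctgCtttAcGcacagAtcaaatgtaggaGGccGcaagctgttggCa
Of the 80 bases, 70 were identical, against 152 of 250 (60.8%) over the whole upstream windows compared without gaps. The Lyz1 stretch ends 49 bases before the annotated Lyz1 gene. The likeness describes these letters only and says nothing of how either gene is controlled.

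Cd52 encodes a small glycoprotein anchored on the surface of leukocytes (chromosome 4, 134082448 to 134095082, minus strand). Its whole-section level was 6.75 and 6.65 CPM in the young, 12.4 and 11.6 CPM in the middle and 13.2 and 21.0 CPM in the old sections. In white matter it was 20.2 and 30.4 CPM in the young, 54.6 and 52.6 CPM in the middle and 80.5 and 127 CPM in the old sections. The ages again did not overlap, and the middle sections stood closer to old 1 than to the young in whole sections. The log2 fold change of old over young was 1.298 (SE 0.22) in whole sections and 1.96 (SE 0.23) in white matter.

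Cd68 encodes a glycoprotein of the late endosomal and lysosomal membrane that is used as a marker of phagocytic activity (chromosome 11, 69664213 to 69666153, minus strand). Whole sections held 8.50 and 7.93 CPM in the young, 10.1 and 10.4 CPM in the middle and 10.6 and 14.1 CPM in the old group. White matter held 16.6 and 19.8 CPM in the young, 34.7 and 29.5 CPM in the middle and 40.7 and 70.2 CPM in the old group. The ages were in order in both sums, but old 1 lay just above the middle sections in the whole-section sum. The log2 fold change of old over young was 0.54 (SE 0.13) in whole sections and 1.54 (SE 0.23) in white matter. The whole-section value was 0.32 without old 2.

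The region before the Cd68 start is shown because, of the 6 members with a window in the promoter table (all but Cd52), it alone held matches to both of a pair of motifs searched in the 250 bases before each start. GAGGAA, searched on both strands, is a core bound by PU.1, the master regulator of macrophage genes, and TGANTCA, which is its own reverse complement, is the AP-1 motif. The window is chr11:69666171-69666420, minus strand, from the RefSeq promoter table (GRCm38.p6), with the matches in capitals.
Cd68: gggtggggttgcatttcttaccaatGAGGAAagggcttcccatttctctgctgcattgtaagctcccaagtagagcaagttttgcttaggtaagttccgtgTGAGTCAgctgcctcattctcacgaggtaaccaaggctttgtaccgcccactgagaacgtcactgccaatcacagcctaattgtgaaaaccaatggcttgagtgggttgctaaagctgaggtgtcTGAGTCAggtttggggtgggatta
The GAGGAA match starts 225 bases before the start and the TGANTCA matches 149 and 24 bases before it. Fcgr3 had 1 GAGGAA match and no TGANTCA match, and neither motif was found in the windows of Lyz2, Mpeg1, Fcgr2b and Fcer1g. Of 32851 windows of the same length in the table, 23.25% held GAGGAA and 6.749% held TGANTCA, and the motifs do not overlap each other in the Cd68 window. A match is a description of these letters, not a binding site.

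Mpeg1 encodes a pore-forming protein of the phagosome that is related to perforin (chromosome 19, 12460779 to 12465283, plus strand). Its whole-section level was 12.4 and 13.3 CPM in the young, 17.9 and 17.5 CPM in the middle and 19.7 and 23.0 CPM in the old sections. In white matter it was 31.3 and 38.2 CPM in the young, 59.9 and 56.6 CPM in the middle and 78.0 and 109 CPM in the old sections. The ages did not overlap in either sum. The log2 fold change of old over young was 0.69 (SE 0.09) in whole sections and 1.36 (SE 0.15) in white matter.

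The Fc receptor genes lie together on chromosome 1, where Fcgr2b (170958617 to 170976547), Fcgr4, Fcgr3 (171051174 to 171064935) and Fcer1g (171229572 to 171234365) fall within 276 kb. Fcgr2b, the inhibitory receptor, had the fewest UMIs of the members. Its whole-section level was 3.02 and 2.46 CPM in the young, 3.75 and 3.72 CPM in the middle and 4.94 and 5.76 CPM in the old sections. In white matter it was 5.55 and 6.37 CPM in the young, 9.10 and 12.02 CPM in the middle and 20.7 and 31.5 CPM in the old sections, from 14 to 87 UMIs per section. The 3 ages did not overlap in either sum, and the log2 fold change of old over young was 0.91 (SE 0.15) in whole sections and 2.07 (SE 0.28) in white matter.

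Fcgr3 encodes an activating receptor of low affinity that needs the Fcer1g adaptor to signal. In whole sections it had 12.2 and 12.3 CPM in the young, 16.9 and 16.1 CPM in the middle and 16.6 and 19.1 CPM in the old group, so that old and middle overlapped. In white matter it had 24.6 and 30.4 CPM in the young, 49.4 and 39.1 CPM in the middle and 54.4 and 67.7 CPM in the old group, with no overlap. The log2 fold change of old over young was 0.49 (SE 0.09) in whole sections and 1.08 (SE 0.17) in white matter.

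Fcer1g encodes the shared adaptor. Its whole-section level was 25.5 and 26.6 CPM in the young, 31.3 and 36.3 CPM in the middle and 35.4 and 46.1 CPM in the old sections, and old and middle overlapped. In white matter it was 67.8 and 75.3 CPM in the young, 82.3 and 102 CPM in the middle and 125 and 194 CPM in the old sections, with no overlap. The log2 fold change of old over young was 0.59 (SE 0.13) in whole sections, where it was 0.39 without old 2, and 1.10 (SE 0.19) in white matter.

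**Figure D1:**
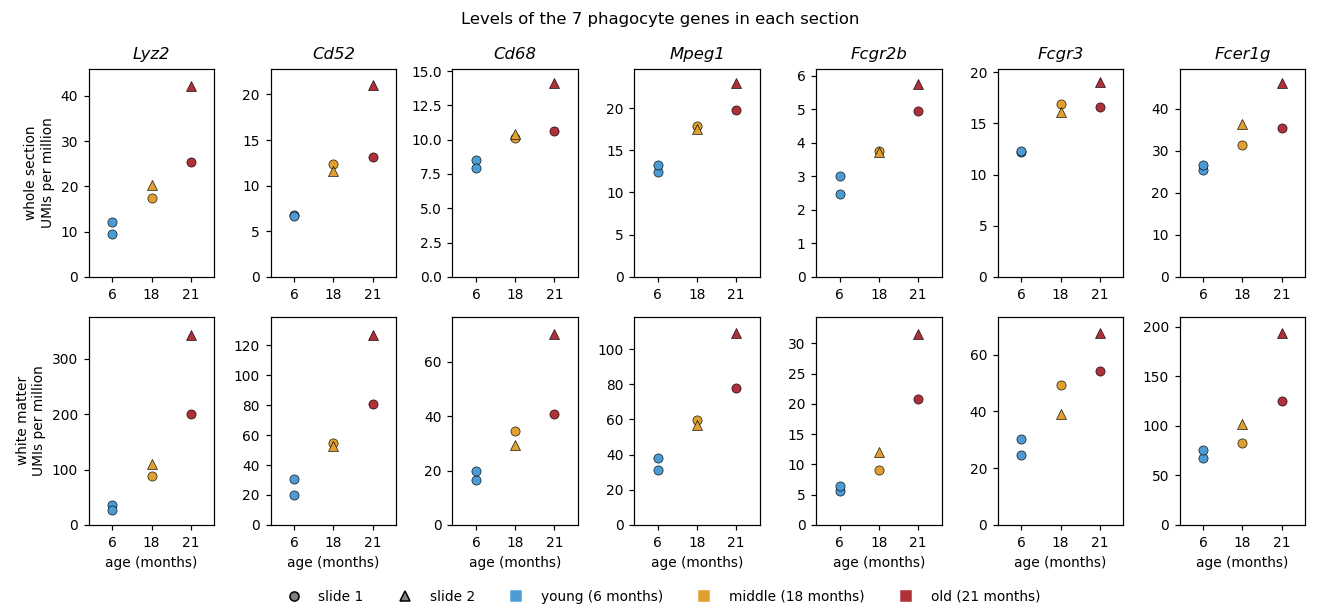
Level of each gene (vertical axis, CPM, starting at 0) against age in months (horizontal axis), in whole sections (top) and white matter (bottom); each point is 1 section, coloured by age and shaped by slide. In white matter both old sections lie above both middle sections and these above both young sections for all 7 genes, and old 2 lies above old 1 for each gene in both rows.

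Other Fcγ receptors are named beside the members because of their kinship. Fcgr1, the activating receptor of high affinity, had 2.25 and 2.84 CPM in young, 3.40 and 3.35 CPM in middle and 3.65 and 3.69 CPM in old whole sections (173 to 259 UMIs). Fcgr4, another activating receptor, had 10 to 37 UMIs per section and passed the filter on low counts in whole sections only. Neither passed the test between any pair of ages (edgeR, adjusted p of old against young in whole sections 0.254 for Fcgr1 and 0.267 for Fcgr4).

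The members' levels were then compared between ages over all genes. In whole sections 7 of 7 members had both old sections above both young sections, an arrangement found for 32.2% of genes with at least 60 UMIs. With edgeR's quasi-likelihood test and Benjamini-Hochberg adjustment, 1 of 7 (Mpeg1) was called between old and young at an adjusted p under 0.05, where 0.164% of 17673 genes were called. In white matter 6 of 7 were called between old and young, all but Lyz2, where 2.68% of 12031 genes were called, and 29.0% of genes had both old above both young. These counts describe the contrast on which the genes were listed, and nothing is read from them.

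Between middle and young whole sections, 0 of 7 members were called by edgeR, where 0.0679% of genes were called. All 7 had both middle above both young sections (22.2% of genes), 5 had an unadjusted p under 0.05 (7.82% of genes), and DESeq2 called 2. The log2 fold changes ran from 0.30 for Cd68 to 0.82 for Cd52 (median 0.42, against -0.0048 over all genes tested). Between old and middle whole sections, edgeR called 0 of 7 members and 0.0% of genes, 3 members had an unadjusted p under 0.05 (2.04% of genes), and DESeq2 called 0. Those log2 fold changes ran from 0.08 for Fcgr3 to 0.81 for Lyz2. They leaned on old 2, without which Lyz2 was 0.40, Fcgr2b 0.37, Mpeg1 0.13, Cd52 0.10, Fcer1g 0.04, Cd68 0.02 and Fcgr3 -0.025.

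The same contrasts were run in white matter. Between middle and young, 7 of 7 members had both middle above both young sections (24.1% of genes), and Mpeg1 was called by edgeR (log2 fold change 0.71, SE 0.17, adjusted p = 0.0214), where 1.89% of genes were called. The call was lost with DESeq2 (adjusted p = 0.152), with slide as a block (0.143), at the coarser clustering resolution of 0.5 (0.0823), and without young 1 (0.0584), middle 1 (0.262) or middle 2 (0.139), 6 of 18 alternatives. Fcgr3 rested at the threshold (0.66, SE 0.18, adjusted p = 0.05001) and was not called. The larger changes of Lyz2 (1.62, SE 0.45, adjusted p = 0.294) and Cd52 (1.04, SE 0.26, adjusted p = 0.0860) did not pass either, and Lyz2 had the widest error of the members. Cd52 was called under 11 of the 18 alternatives and Lyz2 under 5.

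Between old and middle white matter, 7 of 7 members had both old above both middle sections (22.7% of genes). Fcgr2b (log2 fold change 1.31, SE 0.26, adjusted p = 0.0160) and Mpeg1 (0.65, SE 0.14, adjusted p = 0.0433) were called by edgeR, where 0.283% of genes were called. Both calls were lost without middle 1, middle 2 or old 2, with adjusted p of 0.773, 0.128 and 0.801 for Fcgr2b and of 0.713, 0.398 and 0.997 for Mpeg1. The Mpeg1 call was lost under 10 of 18 alternatives in all, with adjusted p up to 0.997, and its value was 0.39 without old 2. The Fcgr2b call was lost under 3 of 17. Of the others, Lyz2 had a change of 1.43 (SE 0.35, adjusted p = 0.551) and Fcgr3 the smallest, 0.42 (SE 0.16, adjusted p = 0.511).

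Between old and young, slide could be held constant only in part. Between old and middle it could be held constant in full, since middle 1 and old 1 shared slide 1 and middle 2 and old 2 shared slide 2. The tests of old against middle given above did not use that pairing, and a fit with slide as a block was run for them only as an alternative. On slide 1, old 1 was above both young sections for 7 of 7 members in whole sections (44.4% of genes) and for 7 of 7 in white matter (43.2% of genes). On slide 2, old 2 was above middle 2 for 7 of 7 members in both sums, as were 50.5% of genes in whole sections and 53.4% in white matter. Slide 2 held the higher old section for every member, while middle 2 was above middle 1 for only 3 of 7 in either sum. With slide as a block, edgeR called 7 of 7 members between old and young white matter, where 1.16% of genes were called, and 0 of 7 in whole sections, where 0.0396% were called. All 7 had an unadjusted p under 0.05 in the latter, and DESeq2, without the block, called 6. No young section lay on slide 2.

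The share of each gene's UMIs that came from white matter was taken next, which sets a gene against itself within a section. White matter gave 9.58% and 10.4% of the Lyz2 UMIs of young sections, 18.9% and 14.4% of those of middle sections and 27.4% and 36.8% of those of old sections. It gave 3.28% and 3.64% of all UMIs in young, 3.74% and 2.65% in middle and 3.49% and 4.53% in old sections. A gene's share also depends on this content, which was lowest in middle 2 and highest in old 2. Fcer1g shifted less, from 8.73% and 10.3% in the young to 12.4% and 19.1% in the old sections. For Cd68 the share was 6.42% and 9.11% in young, 12.8% and 7.52% in middle and 13.4% and 22.5% in old sections, so that young and middle overlapped.

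The level in white matter divided by that in all other spots of the same section compares both parts within 1 animal. For Lyz2 this fold was 3.12 and 3.08 in young, 5.98 and 6.19 in middle and 10.4 and 12.2 in old sections. For Fcgr2b it was 1.89 and 2.75 in young, 2.57 and 3.44 in middle and 4.75 and 6.94 in old sections. For Cd68 it was 2.02 and 2.65 in young, 3.78 and 2.98 in middle and 4.26 and 6.12 in old sections, without the overlap of young and middle seen in its share. For Cd52 young 2 stood at 5.29, above both middle sections (5.08 and 5.04), and only the old sections (7.51 and 7.94) were apart. Fcer1g had nearly the same fold in young (2.82 and 3.04) and middle sections (2.81 and 2.96) and a higher one in the old (3.90 and 4.96). In all 7 members both old folds were above both young folds, as for 23.5% of genes, and this again describes the listing contrast.

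**Figure D2:**
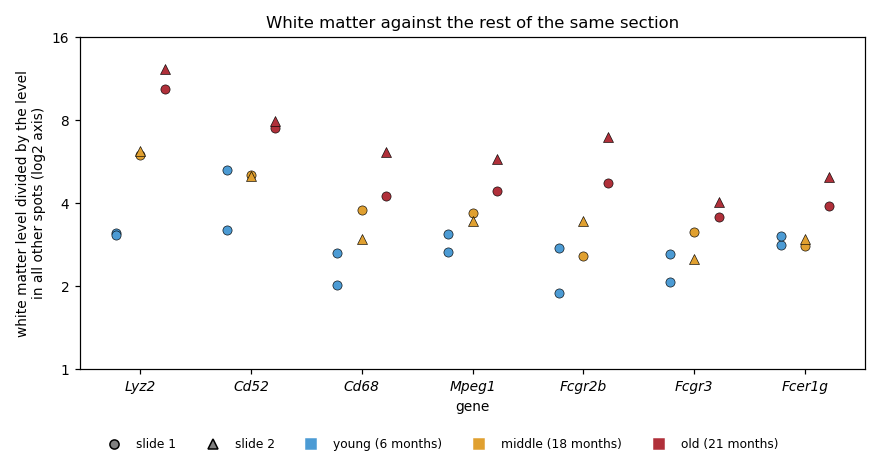
White matter level divided by the level in all other spots of the same section (vertical axis, log2 scale) for each gene (horizontal axis), 1 point per section, coloured by age and shaped by slide. Lyz2 steps from 3.12 and 3.08 in the young to 10.4 and 12.2 in the old sections, and for Fcer1g the young and middle points lie together.

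The old over young change inside white matter was set against that outside in 1 model with the section as a block. Across the 7 members the difference was largest for Lyz2 (log2 1.85, SE 0.14), followed by Fcgr2b (1.33, SE 0.33), Cd68 (1.14, SE 0.21), Cd52 (0.84, SE 0.18), Mpeg1 (0.79, SE 0.16), Fcgr3 (0.67, SE 0.18) and Fcer1g (0.58, SE 0.12). These sizes are built from the contrast on which the genes were listed, and nothing is read from their calls. edgeR called 7 of 7, where 2.42% of 17437 genes were called, and the call depended on the model. limma on the difference within each section, with 3 residual degrees of freedom, gave sizes from 0.57 to 1.85 and called 0 of 7 members and 0 of 16031 genes. All 7 members, and 1207 of those genes, had an unadjusted p under 0.05 there. DESeq2 called 3 members, all of those to which it gave an adjusted p, and without old 2 edgeR called 2.

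Spots were also compared at equal depth, with 5000 UMIs drawn from each and shallower spots left out. Lyz2 was found in 11.8% and 11.8% of young white matter spots, 31.1% and 29.3% of middle ones and 45.2% and 58.3% of old ones. Before drawing, the shares were 20.3% and 20.0% in the young and 63.9% and 74.6% in the old sections, with median depths of 9813 to 15024 UMIs over the 6 sections. Drawing left out 6 to 27 white matter spots per section. Fcer1g was found in 24.6% and 30.7% of young and in 44.7% and 53.9% of old white matter spots, without overlap. In isocortex, Lyz2 was found in 3.87% and 1.16% of young, 4.50% and 2.94% of middle and 5.13% and 5.51% of old spots. Fcer1g was found there in 9.48% and 7.71% of young, 8.41% and 9.45% of middle and 11.5% and 11.2% of old spots. Old and young shares in isocortex overlapped for Cd68, Mpeg1, Fcgr2b and Fcgr3.

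Detection of several members in one spot was counted too. Such shares rise with each member's own share, and no expectation from the single shares was computed. At equal depth, at least 1 of the 7 was found in 52.7% and 56.7% of young white matter spots, 76.8% and 76.7% of middle ones and 83.4% and 89.3% of old ones. At least 3 of the 7 were found together in 6.40% and 9.24% of the young, 20.3% and 22% of the middle and 31.7% and 45.6% of the old white matter spots. In isocortex the share with at least 3 was 0.387% and 0.193% in young, 0.391% and 0.630% in middle and 1.07% and 0.661% in old sections. The white matter spot with the most Lyz2 held 16 and 5 UMIs in young, 45 and 11 in middle and 30 and 40 in old sections.

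**Figure D3:**
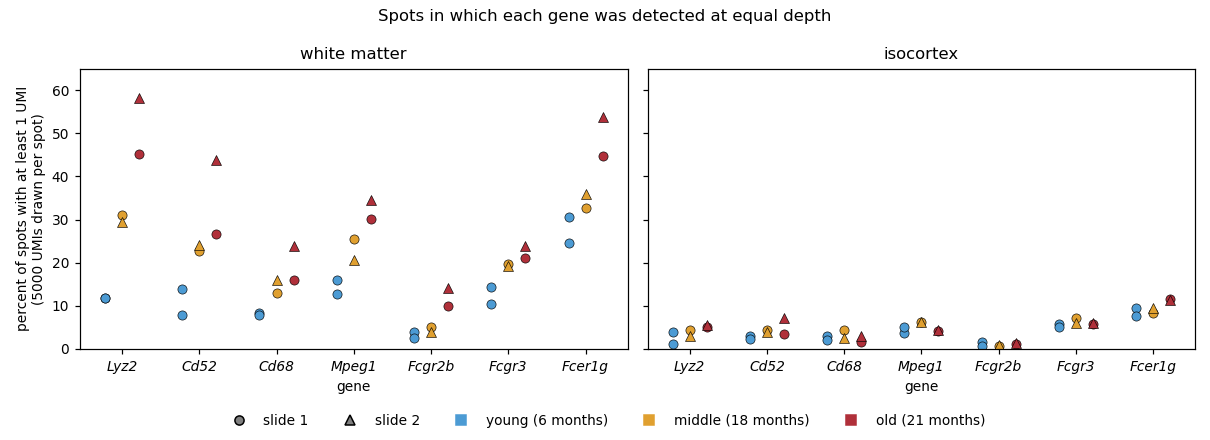
Percent of spots with at least 1 UMI of each gene after drawing 5000 UMIs per spot (vertical axis, starting at 0), in white matter (left) and isocortex (right), 1 point per section. In white matter Lyz2 goes from 11.8% in the young to 45.2% and 58.3% in the old sections, while the highest share in isocortex is 11.5%.

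Over the 10 named regions, white matter had the highest mean level of all 7 members when the 3 ages were averaged. It ranked first in 34 of the 42 combinations of member and section, meninges in 6 and choroid plexus with ventricle in 2. All 6 cases with meninges first were young sections, namely Lyz2 (136 and 80.3 CPM) and Fcgr2b (18.4 and 13.4 CPM) in both and Cd68 and Fcgr3 in young 1. In both old sections white matter was first for every member. Averaged over sections, Lyz2 had 134 ± 119 CPM in white matter, 94.9 ± 29.1 in meninges and 86.1 ± 54.9 in choroid plexus and ventricle (SD, n = 6). This SD takes in the differences between the 3 ages, and the regions come from the same sections. The order of these regions was not tested. At the low end stood isocortex (8.44 ± 2.16 CPM) and amygdala with olfactory cortex (7.94 ± 3.05 CPM). Cd68 followed another order, with striatum (20.7 ± 3.2 CPM) next after white matter (35.3 ± 19.3 CPM), and lay above striatum in white matter in 6 of 6 sections.

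Outside white matter the changes were uneven. Pallidum with reticular thalamus, where Fcgr2b was not tested, had a median log2 fold change of old over young of 1.56 over 6 members. The median of all 7 members in white matter was 1.54. Pallidum with reticular thalamus had the higher value for Cd68 (1.63, SE 0.54, against 1.54) and Mpeg1 (1.77, SE 0.38, against 1.36). These rest on small sums, with 7 and 4 Cd68 UMIs and 13 and 6 Mpeg1 UMIs from 80 and 40 spots in young 1 and young 2. Of 60 combinations of member and region that passed the filter on low counts, 5 were called between old and young, all higher in old, and these again describe the contrast used for the listing. Striatum held 3 of them, namely Lyz2 (log2 fold change 1.85, SE 0.20), Cd52 (1.60, SE 0.23) and Mpeg1 (0.99, SE 0.20), where 0.154% of genes were called. Hypothalamus held Lyz2 (1.46, SE 0.18), where 0.0278% were called, and pallidum with reticular thalamus held Mpeg1 (1.77, SE 0.38), where 0.115% were called. In the regions with no member called, the share of all genes called was 0.1% in isocortex, 0.0% in the hippocampal formation, 0.0359% in thalamus, 0.037% in amygdala and olfactory cortex, 0.0844% in choroid plexus and ventricle and 0.318% in meninges. Without old 2 the count was 1, and without young 2 it was 10.

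Between middle and young, the median log2 fold change of the members tested was 0.39 in the hippocampal formation, 0.72 in thalamus and 0.44 in striatum. It was 0.63 in hypothalamus, 0.85 in choroid plexus and ventricle and 0.28 in isocortex. With 6 members tested, it was 1.38 in pallidum with reticular thalamus, 0.35 in amygdala and olfactory cortex and -0.37 in meninges. Over all genes tested the median ran from -0.0047 to 0.0082 in these regions. Lyz2 in striatum had 9.25 and 7.94 CPM in the young, 19.8 and 23.1 CPM in the middle and 33.0 and 34.4 CPM in the old sections. Middle exceeded young by 1.27 on the log2 scale (SE 0.20, edgeR adjusted p = 0.00327), the only one of 60 combinations called in that contrast, where 0.0731% of striatal genes were called. Mpeg1 in pallidum with reticular thalamus rested just above the threshold (1.65, SE 0.38, adjusted p = 0.0503). In the other regions the share of genes called between middle and young was 0.141% in isocortex, 0.0% in the hippocampal formation, 0.0359% in thalamus, 0.136% in pallidum with reticular thalamus, 0.0418% in hypothalamus, 0.118% in choroid plexus and ventricle, 0.403% in meninges and 0.0185% in amygdala and olfactory cortex. DESeq2 and the fit with slide as a block called 0 of the combinations. Between old and middle edgeR and DESeq2 both called 0 of 60, and 5 and 4 had an unadjusted p under 0.05. Of all genes in that contrast 0.00924% were called in amygdala and olfactory cortex, 0.0212% in meninges and 0.0% in each other region.

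In isocortex 4 of 7 members had both old above both young sections (24.4% of genes there). Lyz2 there had 7.38 and 5.59 CPM in young and 7.30 and 11.6 CPM in old sections, which overlapped, and Cd68 had 6.30 and 5.82 CPM in young and 4.94 and 7.03 CPM in old sections, which overlapped too. The median log2 fold change of the 7 members between old and young was 0.22 in isocortex, 0.53 in the hippocampal formation, 0.89 in thalamus, 0.95 in choroid plexus and ventricle and 0.99 in striatum, against 1.54 in white matter. It was 1.56 over the 6 members tested in pallidum with reticular thalamus. Young 1 held only 61 hippocampal spots, against 182 to 290 in the other sections.

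In meninges the members did not share 1 direction. Between old and young, 4 of the 6 members tested had a positive fold change, with a median of 0.14. Lyz2 had 136 and 80.3 CPM in the young, 48.8 and 109 CPM in the middle and 95.7 and 99.99 CPM in the old sections, with full overlap. Cd52 had 14.4 and 28.3 CPM in the young and 9.26 and 13.2 CPM in the old meninges, so that both old lay below both young, from only 6 to 19 UMIs per section. Cd68, with 22.4 and 11.9 CPM in young and 26.2 and 22.6 CPM in old meninges, and Fcer1g, with 56.8 and 58.0 CPM in young and 69.4 and 77.3 CPM in old, had both old above both young. Between middle and young, 0 of the 6 members tested had a positive fold change. No member was called in meninges in any pair of ages by edgeR. In choroid plexus and ventricle 7 of 7 members had both old above both young sections (15.6% of genes there), and 3 of 7 had a positive fold change from middle to old.

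**Figure D4:**
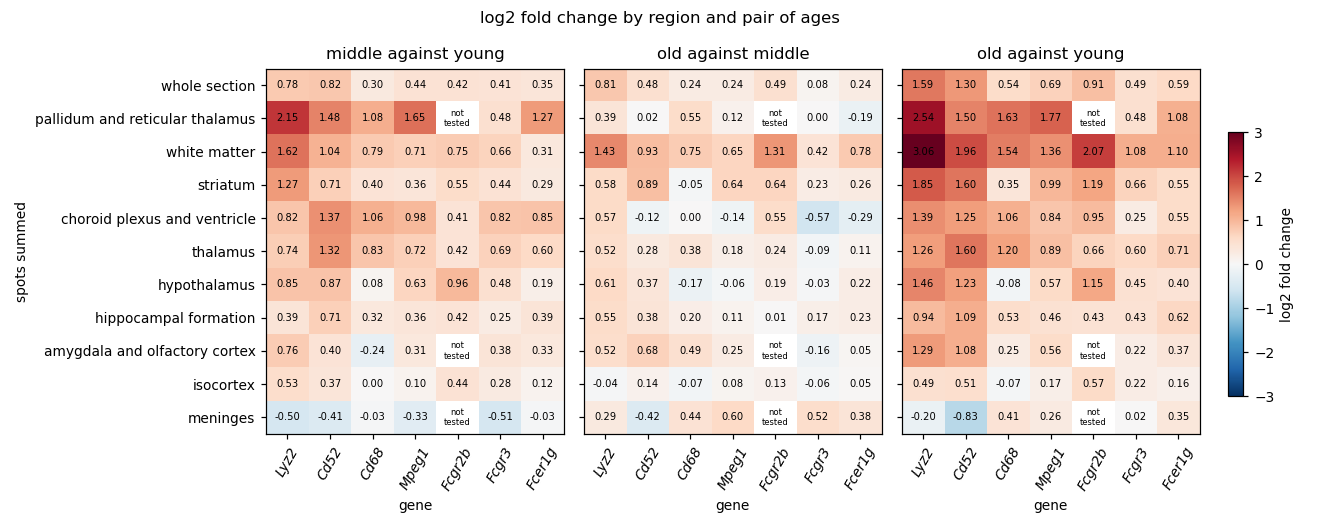
Heat map of log2 fold changes for each gene (columns) and region (rows, with whole sections on top, sorted by the median for old against young) in the 3 pairs of ages; red is higher in the older group and the number in each cell is the value. The Lyz2 cell of white matter holds the largest old against young value, 3.06, and meninges, the bottom row, has the lowest median, 0.14.

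The members were set against lists of marker and pathway genes that do not hold them. The homeostatic microglia list (among them P2ry12, Tmem119, Cx3cr1, Siglech, Sall1 and Csf1r) is the check on the cells behind these transcripts, and all 12 genes were detected in every white matter sum. Their summed white matter level was 650 and 735 CPM in the young, 814 and 813 CPM in the middle and 1038 and 1162 CPM in the old sections. In white matter 6 of 12 were called higher in old than young and 0 lower, where 1.75% of genes were called higher, with a median log2 fold change of 0.50 against 0.0023 over all genes. Cx3cr1, the fractalkine receptor, went from 22.6 and 27.2 CPM in the young to 49.4 and 52.1 CPM in the old sections. In whole sections edgeR called 0 of 12 (0.164% of genes), and 6 had an unadjusted p under 0.05, as did 12.7% of genes.

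Microglial transcripts moved with the members in white matter, and the part of cell number in the members' values was not tested. The members' summed UMIs were nevertheless not a constant fraction of the homeostatic sum. In white matter the ratio was 0.310 and 0.309 in young, 0.465 and 0.495 in middle and 0.577 and 0.810 in old sections. In whole sections it was 0.270 and 0.242 in young, 0.322 and 0.330 in middle and 0.349 and 0.453 in old sections. Lyz2 alone went from 5.49 and 3.66 UMIs per 100 homeostatic UMIs in young white matter to 19.2 and 29.4 in old. For Fcgr3 the same figure was 3.78 and 4.14 in young and 5.24 and 5.82 in old white matter, and middle 1 was higher, at 6.07.

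Markers of other cells were also summed in white matter. The 10 markers of border-associated macrophages summed to 12.03 to 17.8 CPM in young, 15.4 to 18.0 CPM in middle and 16.6 to 30.8 CPM in old white matter, with 1 to 3 of them at 0 in each section. Only 2 of the 10 passed the filter on low counts and edgeR called 0 of them between old and young, with 0 under an unadjusted p of 0.05 (13.4% of genes). The 12 genes of monocytes and neutrophils summed to 10.7 and 13.1 CPM in the young, 12.6 and 15.5 CPM in the middle and 17.0 and 19.9 CPM in the old sections, both old above both young, with 6 to 9 at 0 in each, and Ly6g and Chil3 were at 0 in all. The 1 gene of that list that could be tested, Csf3r, which microglia also express, was called higher in old. The 12 lymphocyte genes summed to 5.94 and 7.78 CPM in the young, 10.9 and 17.0 CPM in the middle and 11.2 and 21.7 CPM in the old sections, again both old above both young. The 1 lymphocyte gene that could be tested, Trbc2, had a log2 fold change of old over young of 1.06 (SE 0.45, edgeR adjusted p = 0.280) and an unadjusted p under 0.05. Trbc2 was also the first leading gene of an unnamed cluster of 1123 spots whose best match was isocortex, so its counts need not come from lymphocytes. It gave 3.17 and 2.83 CPM of the lymphocyte sum in young, 4.55 and 4.01 CPM in middle and 7.88 and 5.43 CPM in old white matter. The 8 endothelial genes summed to 318 to 383 CPM, with 0 of 8 called and 0 under an unadjusted p of 0.05. Monocytes, lymphocytes and border macrophages each express some members, and their part in the members' values was not tested.

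Among Fc receptor and ITAM signalling genes (among them Fcgr1, Fcgr4, Syk, Lyn, Inpp5d, Ptpn6, Tyrobp, Itgam and Itgb2), 15 of 20 could be tested in white matter and 7 were called higher in old than young. In white matter 1.75% of all genes were called higher in that contrast, and the list median was 1.14. Tyrobp, an ITAM adaptor that serves Trem2 as Fcer1g serves the Fc receptors, had 130 and 150.0 CPM in the young, 221 and 272 CPM in the middle and 345 and 453 CPM in the old white matter. It was called in each of the 3 pairs of ages there (edgeR, middle against young 0.77, SE 0.12, adjusted p = 0.00201; old against middle 0.67, SE 0.12, adjusted p = 0.00946). Itgam, a subunit of complement receptor 3, had 10.7 and 14.2 CPM in young and 26.1 and 27.5 CPM in old white matter. Lyn, a kinase that phosphorylates both activating and inhibitory receptors, had 12.3 and 12.4 CPM in young and 12.9 and 15.2 CPM in old white matter (log2 fold change 0.12, SE 0.27).

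Of 22 phagosome and lysosome genes, 21 could be tested in white matter and 10 were called higher in old than young, 0 lower, with a list median of 0.44. Cyba, a subunit of the phagocyte oxidase, went from 38.8 and 41.0 CPM in young to 81.3 and 94.1 CPM in old white matter. Ctsz, a lysosomal cathepsin, went from 120.1 and 124 CPM in young to 235 and 298 CPM in old white matter. Over all white matter genes 1.75% were called higher between old and young. Middle against young called 3 of the list there (Ctsd, Ctsz and Cyba), with 1.89% of genes called. Old against middle called 4 (Ctsd, Ctsz, Grn and Laptm5), with 0.283% of genes called. Ctsd and Grn lie outside the naming rule and were named after their values were seen. In whole sections edgeR called 0 of 21 between old and young (0.164% of genes), and 11 had an unadjusted p under 0.05 (12.7% of genes).

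The list of disease-associated microglia genes (11 genes analysed here: Itgax, Cst7, Lpl, Axl, Ccl6, Cd9, Lgals3, Gpnmb, Spp1, Trem2 and Apoe), a state described around plaques and in aged white matter, had 7 of 11 tested genes called higher in old white matter, with a median of 1.63. Trem2, a lipid-sensing receptor, had 50.3 and 45.3 CPM in the young, 83.0 and 102 CPM in the middle and 135 and 174 CPM in the old white matter. Old exceeded young by 1.63 on the log2 scale (SE 0.14, edgeR adjusted p = 9.02e-09). Spp1, which encodes osteopontin, reached 157 CPM in old 2 against 29.5 CPM in old 1. Cd9 did not pass between old and young (0.11, SE 0.10, adjusted p = 0.723). In whole sections 3 of 11 were called between old and young, namely Trem2, Cst7 and Itgax, where 0.164% of genes were called. Cst7 and Itgax lie outside the naming rule. In white matter 1.75% of genes were called higher in old than young.

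Levels were last compared with those of every other gene over the 60 sums of named region and section. Among 11630 genes with a mean of at least 5 CPM, the genes most like Lyz2 by Pearson r of log2(CPM + 1) were Itgb5 (0.92), Ctsz (0.92) and Cyba (0.91). The genes most like Mpeg1 and Fcer1g were C1qc (0.95 and 0.96), C1qa and Tyrobp, and those most like Cd52 were Tyrobp (0.90), C1qb and C1qa. Fcgr3 was also most like C1qc (0.89) and Cd68 most like C1qa (0.86), while Fcgr2b was most like Ptpn18 (0.84). Between members r ran from 0.69 for Cd68 with Fcgr2b to 0.93 for Mpeg1 with Fcer1g. These values describe sums that share sections and depth, and carry no p.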

How the data were processed

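The values deposited by the authors are unnormalised counts of UMIs for each gene in each spot, from Space Ranger 1.3.1 per the file headers, while the submitters' processing notes list Space Ranger 3.1 and mm10. Barcodes of spots and names of genes, the other content deposited by the authors, come in separate lists. Spot barcodes mark positions on the array, and 1919 recur in all 6 sections. Of 32285 gene identifiers, 32235 matched GENCODE M21 (GRCm38), the source of gene positions.

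The 7 members, the lists and the comparisons were chosen with earlier results of these data known. Spots under 500 UMIs were left out, which kept 16741 of 16743. Spots were scaled per section on 2000 variable genes without the members, the genes of the lists, some reactive glial and immune genes, and mitochondrial and haemoglobin genes, reduced to 30 principal components and grouped by Leiden clustering (20 neighbours, resolution 0.8, 21 clusters). A cluster took a region's name with at least 3 of its markers among 50 leading genes, at least 1 among the first 10, and 2 times the next region's markers. Regions are spots of like transcripts, not outlined anatomy.

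UMIs were summed per section, or per region and section, so the section is the replicate. edgeR 4.0.16 (R 4.3.3; robust quasi-likelihood, TMM, filterByExpr) was fitted to all 6 sections with age alone in the model, leaving 3 residual degrees of freedom, two-sided, with Benjamini-Hochberg adjustment over all genes tested and a threshold of 0.05. All 7 members passed the filter in whole sections and white matter, and Fcgr2b failed it in 3 regions. Sections of one age differed beyond sampling noise (chi-square of 24.0 to 45.6 for each degree of freedom), and p-values measure the spread between these sections. Alternatives were DESeq2 1.42.0, RLE factors, other filters, newer quasi-dispersion, thinned sums, only the groups compared, a block for slide, a replicate block, equal numbers of spots per cluster, other resolutions, white matter by marker share, each section left out, and limma on within-section differences, added after seeing the data. The fits were tested on simulated data.

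Named beside the members were Lyz1, Fcgr1 and Fcgr4, of each list up to 4 genes with the largest absolute log2 fold change between old and young whole sections at a mean CPM of at least 5, and for each member the 3 genes of highest r. CPM values carry no TMM factor; fold changes do.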

Additional observations from a re-analysis of the deposited data

Results flagged for a closer look

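The change from young to old, which is the contrast on which the genes were listed, was larger in white matter than in all other spots for each member, and is given as a description. The difference from edgeR's interaction fit, on the log2 scale, was 1.85 for Lyz2 (1.8467), 1.33 for Fcgr2b (1.3269), 1.14 for Cd68 (1.1385), 0.84 for Cd52 (0.8423), 0.79 for Mpeg1 (0.7925), 0.67 for Fcgr3 (0.6679) and 0.58 for Fcer1g (0.5755), and in each case both old sections had a higher fold of white matter over the rest than both young sections. limma on differences within sections called none of these 7.

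In 2 combinations the direction was opposite to that in most regions, with no test of the difference. Cd52 in meninges averaged 11.2 CPM in the old sections (11.2327), both below both young sections, whereas both old were above both young in 9 regions. Fcgr2b in amygdala and olfactory cortex averaged 1.29 CPM in the old sections (1.2941), both below both young, whereas both old were above both young in 8 regions, and it rested on 1 and 5 UMIs in old 1 and old 2.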

How the results depend on the processing

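Of 824 fold changes of members recomputed under an alternative, 823 kept their sign and 700 their side of the threshold, 49 calls were lost and 74 gained. The exception in sign was Fcgr3 between old and middle whole sections, which was 0.08, ranged from -0.025 without old 2 to 0.18 without old 1, and so reversed. Counts of members called moved more, and the cause was not tested. In whole sections the 1 call between old and young became 6 with DESeq2, 3 with no filter on low counts, and 0 with slide as a block, with the replicate block or with only the groups compared. It ranged from 0 to 4 with 1 section left out, 0 without young 1, middle 1, middle 2 or old 2 and 4 without old 1. Over all genes that contrast had 29 calls, 194 with DESeq2 and 113 with no filter. Middle against young had 0 calls, 2 with DESeq2 and 1 with no filter. In white matter the 6 calls between old and young stayed 6 or 7 under every alternative run. The 1 call between middle and young became 2 with DESeq2, RLE factors, at least 10 counts in every sum or the replicate block, 3 with only the groups compared, and 4 with no filter, at Leiden resolution 1.2 or with white matter set by marker share. It ranged from 0 (without middle 1 or middle 2) to 4 (without old 1, old 2 or young 2). The 2 calls between old and middle became 5 with no filter, 1 with newer quasi-dispersion or at resolution 0.5 or 1.2, and 4 with slide as a block or marker share. They ranged from 0 (without middle 1 or middle 2) through 1 (without old 2) and 5 (without young 1 or young 2) to 6 (without old 1). In the other regions the 5 calls between old and young became 16 with no filter and 3 with thinned sums or slide as a block, and ranged from 1 (without old 2) to 10 (without young 2). The 1 call between middle and young became 0 with DESeq2 or slide as a block, 2 with RLE factors, newer quasi-dispersion or resolution 1.2, 4 with the replicate block or only the groups compared, and 16 with no filter, and ranged from 1 to 5. The 0 calls between old and middle became 1 with no filter or only the groups compared, and ranged from 0 to 1. The 7 interaction calls became 3 with DESeq2, 2 with thinned sums and 0 with limma, and ranged from 2 (without old 2) through 4 (without young 1) to 7. Replicate numbers were not taken as pairs in the main fits. Over 17673 genes the deviations of same-numbered sections had r = 0.019 for young and middle, 0.135 for young and old and 0.241 for middle and old. Same-numbered middle and old sections also shared a slide, so the main fits left out a pairing of these groups by slide. A section left out leaves an age with 1 section, assumed to vary like the others. Small sums limit Fcgr2b in white matter (14 UMIs in young 1) and all members in meninges and in pallidum with reticular thalamus.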

Other observations

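The spots of 6 clusters took no region name, and in 1 of them the members were high. This cluster of 618 spots was led by Slc5a7, Slc10a4, Lhx8 and Slc18a3, genes of cholinergic neurons, beside the oligodendrocyte gene Klk6, and Cd52 itself was among its leading genes. White matter was its best match, with 9 of the white matter markers among its 50 leading genes but 0 among the first 10, and its spots count among all other spots in the comparisons with white matter. Lyz2 there had 15.0 and 14.9 CPM in the young, 45.9 and 73.0 CPM in the middle and 124 and 167 CPM in the old sections. Cd52 had 16.9 and 18.2 CPM in the young, 47.9 and 44.6 CPM in the middle and 70.2 and 95.5 CPM in the old sections. Fcer1g had 54.5 and 59.5 CPM in the young, 98.4 and 98.7 CPM in the middle and 103 and 121 CPM in the old sections. The young sums were small, with 24 and 9 Lyz2 UMIs. The 3 ages did not overlap for these 3 genes, and the values were not tested.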
